A study of Mus musculus with 3 samples.

Results

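Natural killer (NK) cells were a small population, 159 of 28522 kept cells, in LLC1 tumours grown in the tibia of mice. LLC1 is the Lewis lung carcinoma line, which is of mouse origin. The cells were chosen by their own counts of unique molecular identifiers (UMIs, each standing for 1 captured RNA molecule). A kept cell had 300 or more genes and at most 15% of its UMIs from mitochondrial genes. It counted as an NK cell where Ncr1, Klrb1c and Klre1 together had 2 or more UMIs, Cd3e, Cd3d and Cd3g had none, C1qa, C1qb and C1qc together had at most 2, and the keratins Krt8 and Krt18 together had at most 3. The wild-type library gave 81 NK cells of 9295 kept cells, the Mfn2 library 27 of 9868 and the Rhot1 library 51 of 9359.

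The hosts were wild-type mice, DMP1-Cre Mfn2 -/- mice and DMP1-Cre Rhot1 -/- mice, 8 weeks old when 1000000 tumour cells in 10 µL were placed in the tibia. Mfn2 encodes a protein of mitochondrial fusion and Rhot1 a protein that moves mitochondria along microtubules, and the Dmp1 promoter is known to drive Cre mainly in osteocytes. Since the labels name no Cre for the control mice, carrying Cre and the deletion cannot be told apart. On day 14 tumours of 3 mice per group were mixed in equal parts, live cells were sorted, and 1 droplet library of 3′ ends was made per group. With 1 library per genotype and no map from cells to mice genotypes could not be tested against each other, so neither p-values nor standard errors are given. Bracketed intervals are 95% intervals, exact except for ratios of shares, where they are a large-sample approximation. They cover counting error only, not variation between mice, tumours or sorts. They are too narrow where a gene's UMIs come mostly from a few cells. Both knockout comparisons use the same wild-type library.

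NK cells are innate lymphocytes that kill stressed or transformed cells without a rearranged antigen receptor. They weigh signals from activating receptors, such as NKp46 (encoded by Ncr1) and NKG2D (Klrk1), against inhibitory receptors for MHC class I. In mice the Ly49 family (Klra genes) includes inhibitory receptors of this kind and also activating ones. Killing uses perforin (Prf1), which opens the target membrane, and granzymes, proteases that enter through it, and NK cells also secrete chemokines and cytokines such as interferon gamma. The transcription factors Eomes and T-bet (Tbx21) set the NK programme, and Eomes separates conventional NK cells from tissue-resident group 1 innate lymphoid cells (ILC1).

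NK cells were shallower than the average kept cell. Their median was 2679 UMIs in the wild-type, 2615 in the Mfn2 and 3918 in the Rhot1 library, against 10136, 11042.5 and 12237 for all kept cells and 2118, 2469 and 2328 for T cells (2 or more CD3 UMIs and none of Ncr1, Klrb1c and Klre1, with the same ceilings for C1q and keratin). Summed over NK cells the libraries held 310365, 75103 and 240138 UMIs, so that 1 UMI stood for 3.22, 13.3 and 4.16 counts per 1000000 UMIs (CPM) of the NK cell total. The libraries shared 35, 20 and 21 cell barcodes in pairs, and no shared barcode was an NK cell in both. The deepest wild-type NK cell had 31528 UMIs, 10.2% of that library's NK total. It qualified on 2 Klre1 UMIs, and it also held 33 UMIs of Il1rl1, the receptor of interleukin 33, 29 of the tumour gene Hmga2 and 13 of Sparc. Values without it are given beside a list or gene where it turned the sign of a median, ended a call or moved a count of calls by over 1.5 times. In NK cells Mfn2 had 2, 2 and 5 UMIs and Rhot1 6, 0 and 6, with the libraries in the order wild type, Mfn2, Rhot1, which holds throughout, and Dmp1 had 0 in each. A 3′ tag outside a deleted stretch checks no deletion, and the deletion was aimed at bone cells.

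The genes of the rule are a description of the choice. Ncr1 stood at 377, 559 and 508 CPM in the wild-type, Mfn2 and Rhot1 NK cells, Klrb1c (NK1.1) at 322, 573 and 304 CPM, and Klre1 at 464, 652 and 371 CPM. Just inside the threshold, 23, 5 and 4 cells had a marker sum of 2. Just outside it, 29, 8 and 15 otherwise eligible cells had a sum of 1. In the wild-type library the cells inside had a median of 22 UMIs over 24 NK core genes that the rule did not use, and the cells outside a median of 8, with none in 4 of the 29. The CD3 step had removed 37, 11 and 24 cells, and the keratin step 5 in each library.

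The label held against genes outside the rule. Each of the 159 cells had at least 5 UMIs of the NK core genes outside the rule. Nkg7, a granule protein of killer lymphocytes, had a UMI in 80 of 81, 27 of 27 and 48 of 51 NK cells, against 0.871%, 0.368% and 0.367% of macrophages (10 or more C1q UMIs), which are deeper. Tyrobp, the adaptor DAP12 of activating receptors, had a UMI in all 159. Of 17 T cell genes, 10, 12 and 11 were at 0 in the 3 libraries. Among these were Cd3d, Cd3e and Cd3g, which the rule sets to 0 and which give no support. Trac, the T cell receptor alpha chain, had 1, 0 and 1 UMIs over all NK cells, and Cd8a, Cd8b1, Cd4, Cd5 and Cd6 had 0. There were exceptions, and 3 of the T cell genes reached a mean of 50 CPM. Trbc1, a constant gene of the T cell receptor beta locus, stood at 474, 559 and 629 CPM. It had a UMI in 69.1%, 74.1% and 94.1% of NK cells and in at most 0.367% of macrophages. Trbc2, of the same locus, had a UMI in 22 of 81, 5 of 27 and 19 of 51 NK cells, and Trdc in 8, 2 and 5. Requiring no UMI of the T cell receptor or Cd8b1 genes left only 18, 7 and 2 NK cells. Of 18 macrophage and monocyte genes 1, 2 and 1 were at 0 in the 3 libraries, and 7 reached a mean of 50 CPM. The defining Csf1r had 0, 0 and 5 UMIs, the 5 in 1 cell, but Ccr2 had a UMI in 47, 16 and 40 NK cells. This list thus gives the label no clear support. The summed level of the list was 1524, 2210 and 1720 CPM, and it includes the C1q genes that the rule limits. The 8 ILC2 and ILC3 genes, 11 dendritic cell genes, 8 B lineage genes and 6 mast cell and basophil genes had no member that reached a mean of 50 CPM, and their sums ran from 0 to 155 CPM.

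The sequences just upstream of NK genes are shown because 2 transcription factor families of the NK programme are measured here, RUNX (Runx3) and T-box (Eomes and Tbx21), and because Gzmc, Gzmd and Gzme appeared together in single cells, described further on. Each window runs from 250 bases before to 50 bases after the RefSeq start, 5′ to 3′ on the gene's strand, build GRCm38.p6. Capitals mark the letters TGTGGT or ACCACA (the core of the RUNX motif, both strands) and GTGTGA or TCACAC (the core of the T-box motif, both strands).
Ncr1: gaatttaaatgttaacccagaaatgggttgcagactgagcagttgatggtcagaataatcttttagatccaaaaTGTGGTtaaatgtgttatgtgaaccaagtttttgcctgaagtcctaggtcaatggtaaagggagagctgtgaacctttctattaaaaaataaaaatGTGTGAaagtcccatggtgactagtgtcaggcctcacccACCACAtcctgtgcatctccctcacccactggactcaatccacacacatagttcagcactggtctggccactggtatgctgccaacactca
Gzmb: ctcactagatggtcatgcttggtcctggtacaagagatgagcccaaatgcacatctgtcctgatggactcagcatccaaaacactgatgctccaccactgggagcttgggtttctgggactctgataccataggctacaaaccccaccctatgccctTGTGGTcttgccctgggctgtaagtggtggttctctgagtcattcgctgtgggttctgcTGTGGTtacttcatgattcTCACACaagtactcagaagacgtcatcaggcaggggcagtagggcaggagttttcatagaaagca
Gzmc: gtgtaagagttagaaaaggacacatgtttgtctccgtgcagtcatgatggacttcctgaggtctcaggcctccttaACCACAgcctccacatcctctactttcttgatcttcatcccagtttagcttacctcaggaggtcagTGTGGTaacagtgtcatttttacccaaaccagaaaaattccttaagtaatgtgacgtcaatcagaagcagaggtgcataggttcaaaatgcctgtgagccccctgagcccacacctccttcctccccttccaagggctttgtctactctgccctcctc
Gzmd: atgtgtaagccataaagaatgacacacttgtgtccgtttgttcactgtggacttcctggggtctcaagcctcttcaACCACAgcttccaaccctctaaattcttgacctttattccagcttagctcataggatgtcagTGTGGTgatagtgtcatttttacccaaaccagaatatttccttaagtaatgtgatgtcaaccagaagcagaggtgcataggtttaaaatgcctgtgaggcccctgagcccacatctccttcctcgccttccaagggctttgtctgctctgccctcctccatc
Gzme: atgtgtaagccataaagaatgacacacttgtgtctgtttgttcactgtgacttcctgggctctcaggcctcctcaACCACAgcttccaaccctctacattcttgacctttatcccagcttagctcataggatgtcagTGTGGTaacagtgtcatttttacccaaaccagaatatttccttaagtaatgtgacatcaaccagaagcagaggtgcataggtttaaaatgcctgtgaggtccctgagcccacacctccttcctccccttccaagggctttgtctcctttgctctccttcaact
These windows are chr7:4337465-4337764 (plus strand) for Ncr1, and on the minus strand chr14:56262285-56262584 for Gzmb, chr14:56234608-56234907 for Gzmc, chr14:56132544-56132843 for Gzmd and chr14:56120576-56120875 for Gzme. The RUNX letters began at -176 and -41 from the start of Ncr1, at -93 and -34 of Gzmb, at -174 and -108 of Gzmc, at -174 and -112 of Gzmd and at -175 and -113 of Gzme. The T-box letters stood at -80 of Ncr1 and at -15 of Gzmb, and in none of the windows of Gzmc, Gzmd and Gzme. Of 27025 RefSeq promoters of this length, 16.9% held the RUNX letters, 14.4% the T-box letters and 2.96% both. Of 27 NK core and rule genes 24 were matched, and 12 of these (50%) held the RUNX letters and 7 (29.2%) the T-box letters. The Gzmd and Gzme windows were identical at 93.4% of aligned positions, and that of Gzmc at 82.7% with either, while Gzmb and Gzmc were identical at 46.0%. Such matches describe letters and are not binding sites.

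In the GENCODE annotation of GRCm38, the mouse build also called mm10, Ncr1 lies on chr7:4337724-4345164 (plus strand). The granzyme cluster lies on the minus strand of chromosome 14, with Gzme at chr14:56117626-56120625, Gzmd at chr14:56129556-56132608, Gzmc at chr14:56231441-56234656 and Gzmb at chr14:56258838-56262260. Gzma stands apart at chr13:113093825-113100981 (minus strand), Prf1 at chr10:61297833-61304680 (plus strand) and Xcl1 at chr1:164931644-164935527 (minus strand). All are protein-coding genes.

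NK cells made up 0.871% (0.693% to 1.08%) of kept cells in the wild-type library, 0.274% (0.180% to 0.398%) of those of the Mfn2 library and 0.545% (0.406% to 0.716%) of those of the Rhot1 library. The ratio to wild type was 0.314 (0.203 to 0.485) for Mfn2 and 0.625 (0.441 to 0.887) for Rhot1. With a marker sum of at least 3 the Rhot1 share was 0.502% against 0.624%, a log2 ratio of -0.31 with overlapping intervals and under 1.5-fold, and the Mfn2 share was 0.223%, a log2 ratio of -1.48. Cells with a UMI of Ptprc, the pan-leukocyte gene CD45, and at most 3 keratin UMIs were also a smaller share, at 29.6%, 20.8% and 21.6% of kept cells. Of these Ptprc cells NK cells were 2.91%, 1.32% and 2.52%, ratios of 0.453 (0.294 to 0.698) and 0.865 (0.612 to 1.22). T cells were lower as well, at 2.18%, 0.598% and 1.04% of kept cells, and NK cells were 28.5%, 31.4% and 34.5% of NK and T cells together, intervals that overlap. A share cannot tell fewer NK cells from more of the other cells, and the tumour cells (over 10 keratin UMIs and no Ptprc) were 22.3%, 28.9% and 26.3% of kept cells.

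**Figure D1:**
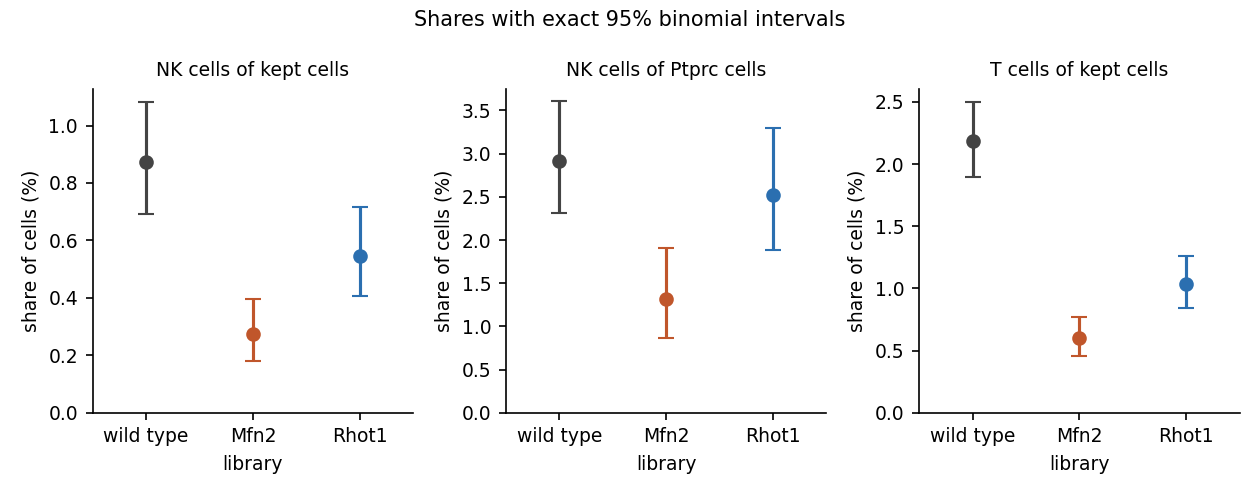
Shares in the 3 libraries (x axis) as percent of cells (y axis), for NK cells of kept cells, NK cells of Ptprc cells and T cells of kept cells. Points are the shares and bars exact 95% binomial intervals; NK cells of kept cells stood at 0.871%, 0.274% and 0.545%.

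Granzymes and perforin were abundant NK transcripts, and they differed between libraries in different ways. Gzma, the tryptase-like granzyme A, was highest in the Mfn2 library. It had 3319 CPM (3119 to 3528) in wild-type NK cells, 6085 (5540 to 6669) in Mfn2 and 3652 (3414 to 3902) in Rhot1 NK cells, and a UMI in 64 of 81, 22 of 27 and 36 of 51 cells. The ratio to wild type was 1.83 (1.64 to 2.05) for Mfn2 and 1.10 (1.00 to 1.21) for Rhot1. In the cells that should lack it, macrophages and tumour cells, the share with a Gzma UMI was at most 1.30% in any library, at median depths of 4911 UMIs or more. The Mfn2 value was 0.45 and 0.53 on the log2 scale, under the 1.5-fold line, with a marker sum of at least 3 and with no C1q or keratin UMIs allowed.

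Gzmb, the granzyme that cuts after aspartate and activates caspases, was higher in both knockout libraries. Its level was 1260 CPM in wild-type, 2423 in Mfn2 and 2399 in Rhot1 NK cells, with a UMI in 59, 23 and 39 cells. The ratios were 1.92 (1.60 to 2.30) and 1.90 (1.67 to 2.17). For Mfn2 the direction turned, to -0.27 on the log2 scale, when cells with any C1q or keratin UMI were left out, which kept 39, 16 and 24 cells. For Rhot1 the value was 0.57, just under the 1.5-fold line of 0.58, when each cell was weighted alike. Prf1 stood at 1102, 1358 and 1599 CPM, ratios of 1.23 (0.978 to 1.54) and 1.45 (1.25 to 1.68), both under 1.5-fold. All 3 of Gzma, Gzmb and Prf1 had a UMI in 42 of 81, 19 of 27 and 27 of 51 cells, and none of them in 5, 0 and 2 cells. Gzmk had 1 UMI in the wild-type library and 0 in the others, and Gzmm 1, 2 and 9.

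Gzmc, a granzyme of the same cluster on chromosome 14 as Gzmb, went apart from Gzma. It had 3328 CPM (3128 to 3538) in wild-type, 1332 (1083 to 1619) in Mfn2 and 6767 (6442 to 7104) in Rhot1 NK cells. The ratios were 0.400 (0.322 to 0.492) and 2.03 (1.88 to 2.20). The level rested on few cells, 27 of 81, 5 of 27 and 32 of 51, and 1 Rhot1 cell held 552 of 1625 UMIs and 1 Mfn2 cell 56 of 100. At equal depth, with each cell thinned to 1500 UMIs, which left out 6, 7 and 3 shallower NK cells, a Gzmc UMI was found in 34.7%, 15% and 47.9% of cells, against 33.3%, 18.5% and 62.7% unthinned. Gzmd had 264, 426 and 2853 CPM in 5, 1 and 11 cells, and Gzme 193, 333 and 1420 CPM in 5, 1 and 11 cells. Gzmg had 61 UMIs, all in 3 Rhot1 cells, Gzmf 33 UMIs in 1 wild-type cell and 3 in Rhot1 cells, and Gzmn 0. Gzmd, Gzme, Gzmf, Gzmg and Gzmn are close copies, and how reads were split between them is uncertain: in the last 300 bases of the transcripts the longest shared stretch was 49 bases for Gzmd and Gzme, and 88 bases for Gzmg and Gzmn.

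**Figure D2:**
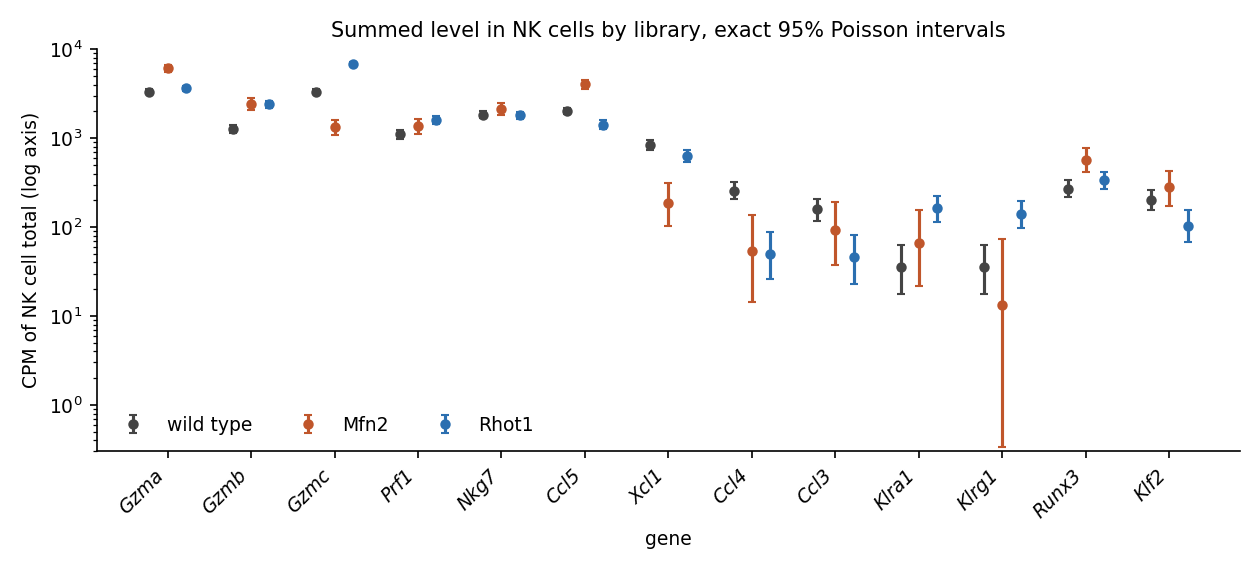
Level of 13 genes (x axis) summed over the NK cells of each library, in CPM of the NK cell total on a log axis (y axis), with exact 95% Poisson intervals. Gzma was highest in the Mfn2 library at 6085 CPM, Gzmc in the Rhot1 library at 6767 CPM, and Xcl1 lowest in the Mfn2 library at 186 CPM.

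In single cells, Gzma spanned a wide range. Per 10000 UMIs of a cell, the lowest value was 0, the median 18.7 and the highest 266 in wild-type NK cells. The lowest was 0, the median 49.2 and the highest 297 in Mfn2 NK cells, and 0, 19.4 and 260 in Rhot1 NK cells. Single cells of the 3 libraries thus overlapped over most of their range. For Gzmc the median was 0 in the wild-type and Mfn2 cells and 4.48 in the Rhot1 cells, with highest values of 319, 102 and 488. For Xcl1 it was 1.84 in the wild-type cells and 0 in the other 2 libraries.

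**Figure D3:**
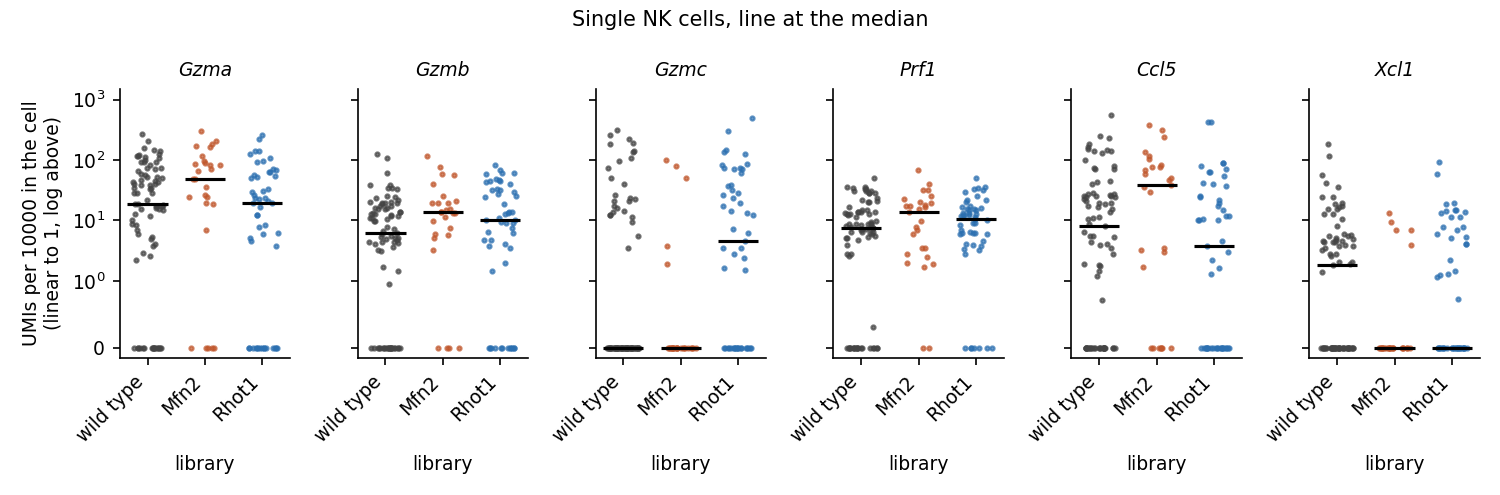
UMIs per 10000 UMIs in each NK cell (y axis, linear up to 1 and logarithmic above) by library (x axis) for 6 genes. Each point is a cell and the black line the median; Gzmc lies at 0 in most wild-type and Mfn2 cells and in 19 of 51 Rhot1 cells.

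Cells with and without Gzmc differed in other genes, and did so in each of the 3 libraries, though in the Mfn2 library only 5 cells had Gzmc. This split was chosen after the values were seen and is a description. A Gzmc UMI was found in 64 of 159 NK cells, 58 of which also had Gzmb, and all 17 cells with Gzmd, Gzme or Gzmg were among them. Ccl5 (RANTES), a chemokine that draws T cells and monocytes, lay on the other side. In the wild-type library it had 234 CPM in cells with Gzmc and 3402 CPM in cells without. In the Mfn2 library it had 88.5 CPM, which is 2 UMIs, against 5752 CPM, and in the Rhot1 library 410 against 6156 CPM. A Ccl5 UMI was found in 40.7% against 83.3%, 40% against 81.8% and 40.6% against 89.5% of cells, although the cells with Gzmc were deeper, at medians of 4882 against 2294.5, 5326 against 1822 and 5977.5 against 2025 UMIs. Thinned to 1500 UMIs the shares were 19.2% against 71.4%, 33.3% against 58.8% and 8.70% against 72%. The Mfn2 shares are then 1 of 3 cells against 10 of 17. Of 2986 genes with a mean of 50 CPM or more, 33 (1.11%) were higher by 1.5-fold or more in all 3 libraries in cells with Gzmc and 69 (2.31%) were lower. Of 229 list genes with 50 UMIs or more, 12 were higher, 1 of them Gzmc itself, which the split fixes, and 8 were lower.

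**Figure D4:**
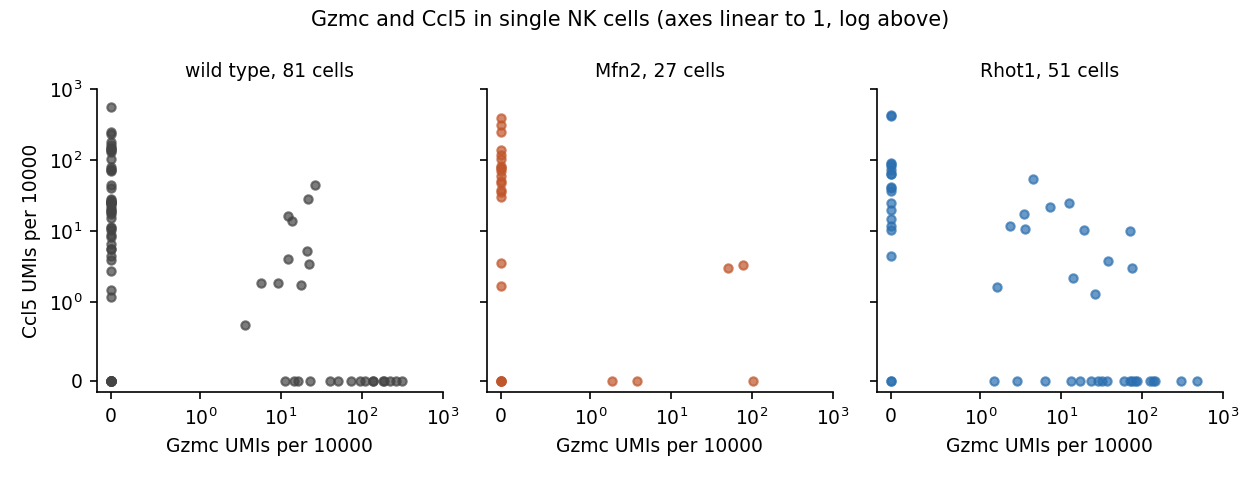
Gzmc (x axis) against Ccl5 (y axis) in single NK cells, both in UMIs per 10000 UMIs of the cell on axes that are linear up to 1 and logarithmic above, 1 panel per library. Cells with many Ccl5 UMIs lie along the axis without Gzmc, and Ccl5 was found in 40.7%, 40% (2 of 5 cells) and 40.6% of cells with Gzmc.

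Among the 12, beside Gzmc itself, were Gzmb, Gzmd, Gzme, the granule proteoglycan serglycin (Srgn), the granzyme inhibitor Serpinb9b, the transcription factor Bhlhe40, Thy1, the glycolytic enzymes Tpi1 and Pgam1, and S100a8 and S100a9. Gzmb had 1848 against 796 CPM in the wild-type, 3806 against 1828 in the Mfn2 and 2579 against 1557 in the Rhot1 library. The 8 lower genes were Ccl5, Ccl3, Klf2, a factor of lymphocyte quiescence and egress, the interleukin 18 receptor Il18r1, the inhibitory receptor gene Klra9, Klrb1c, the kinase Fyn and H2-Q4. Klrb1c is a gene of the selection rule, and a shallow cell needs a higher CPM to reach the marker sum, so its value is not independent of depth. Klf2 had 131 against 259 CPM, 44.3 against 381 CPM and 40.5 against 401 CPM, the Mfn2 value with Gzmc again resting on 5 cells. Cells with 2 or more UMIs of Mki67, Top2a, Birc5 and Pclaf, counted as cycling, were 4 of 27, 1 of 5 and 10 of 32 among those with Gzmc and 7 of 54, 3 of 22 and 0 of 19 among those without. Depth moves with this split, and beyond the thinned Ccl5 shares its part was not tested.

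Of the chemokines and cytokines, Xcl1 and Ccl4 were lower in the Mfn2 library and Ccl3 and Ccl4 lower in the Rhot1 library. Xcl1, lymphotactin, which draws cross-presenting dendritic cells, had 838 CPM in wild-type, 186 in Mfn2 and 633 in Rhot1 NK cells, with a UMI in 42, 5 and 25 cells. The ratios were 0.223 (0.120 to 0.380) and 0.756 (0.614 to 0.927). Without cycling cells the Rhot1 value was -2.15 on the log2 scale, against -0.40 with them. Ccl4 (MIP-1 beta) had 80, 4 and 12 UMIs in 18, 3 and 6 cells, ratios of 0.207 (0.055 to 0.550) and 0.194 (0.096 to 0.358). Ccl3 (MIP-1 alpha) had 158, 93.2 and 45.8 CPM in 14, 2 and 5 cells, ratios of 0.590 (0.226 to 1.31) and 0.290 (0.136 to 0.566). Ccl5 went the other way in the Mfn2 library, at 2004, 4048 and 1424 CPM and ratios of 2.02 (1.76 to 2.32) and 0.711 (0.621 to 0.812), but the Mfn2 value was -0.36 on the log2 scale after thinning to 1500 UMIs. Interferon gamma (Ifng) had 23, 2 and 10 UMIs in 13, 2 and 9 cells, too few to compare, and Csf2 and Il10 had 0. Lymphotoxin beta (Ltb) had 329, 293 and 312 CPM. Tgfb1 had 139, 186 and 225 CPM, with a Rhot1 ratio of 1.62 (1.07 to 2.48).

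Fold changes across genes were taken on log2(CPM + 10) for genes with a mean of 50 CPM or more over the 3 libraries, and a gene counted as higher or lower at 1.5-fold or more. In the Mfn2 library 17.6% of 2986 genes were higher and 14.1% lower, and in the Rhot1 library 7.4% were higher and 8.71% lower. The filter takes the mean of all 3 libraries, so a gene can pass through the library where it is high. With no filter beyond 1 UMI, 20.2% of genes were higher and 27.4% lower for Mfn2. Without each gene's top cell 259 of 2357 genes were higher and 451 lower (19.1%) for Mfn2. That setting keeps the library totals and drops 1 of 27 Mfn2 cells against 1 of 81 wild-type cells. A shift towards lower is thus built into it, and it cannot show which way the split goes. The median over all genes was 0.05 and -0.00. These shares measure small counts as well as differences: the interval of the ratio left out 1 for 147 of the 526 higher and 73 of the 420 lower Mfn2 genes, and for 99 of 221 and 124 of 260 Rhot1 genes. The counts of each list below are to be read against them.

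Activating receptors and their adaptors lay a little above the rest at the median in both libraries, by an amount that hung on the settings. Of 13 compared members 6 were higher and none lower in the Mfn2 library, with a median of 0.52, and 2 were higher and none lower in the Rhot1 library, with a median of 0.30. The interval of the ratio left out 1 for 2 of the 6 higher Mfn2 genes, Hcst and Cd7. Without the deepest wild-type cell the medians were 0.20 (5 higher, 1 lower) and 0.12 (2 higher, 1 lower) over 14 members. Over the other settings the medians ran from -0.12 to 0.52 for Mfn2 and from -0.83 to 0.30 for Rhot1. NKG2D (Klrk1) stood at 425, 612 and 491 CPM and its adaptor Hcst (DAP10) at 306, 479 and 321 CPM, a Mfn2 ratio of 1.57 (1.04 to 2.32), with a log2 ratio of 0.50 without that cell. Cd7 was at 74.1, 173 and 70.8 CPM. Cd244a (2B4) was at 106, 120 and 192 CPM, a Rhot1 ratio of 1.80 (1.13 to 2.91), and Cd160 at 45.1, 93.2 and 117 CPM, a Rhot1 ratio of 2.59 (1.32 to 5.31) that was 0.05 on the log2 scale after thinning. Tyrobp, at 2249, 2570 and 2657 CPM, and Fcer1g, at 1563, 1758 and 1699 CPM, were under 1.5-fold in both.

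Inhibitory and checkpoint receptors had 8 compared members with medians of 0.31 and 0.46, of which 1 was higher and 1 lower in the Mfn2 library and 2 were higher and 1 lower in the Rhot1 library. Klra1 (Ly49A) had 35.4, 66.6 and 162 CPM in 6, 2 and 11 cells, a Rhot1 ratio of 4.58 (2.30 to 9.92). Klrg1, a receptor of mature NK cells that binds cadherins, had 35.4, 13.3 and 142 CPM in 6, 1 and 11 cells, a Rhot1 ratio of 3.99 (1.98 to 8.74). Klra4 had 309, 226 and 391 CPM, Klra7 245, 186 and 300 CPM, Klra8 155, 107 and 204 CPM and Klra3 171, 240 and 108 CPM. Klra4 and Klra8 encode activating members of the family, so these values and the shares that follow are not all of inhibitory receptors. A UMI of any of 6 Klra genes was found in 67 of 81, 18 of 27 and 41 of 51 cells, and of 2 or more of them in 54.3% (42.9% to 65.4%), 29.6% (13.8% to 50.2%) and 64.7% (50.1% to 77.6%). The Klra genes are near copies of each other, and how reads were split between them is uncertain. Klrd1 (CD94), which pairs with NKG2A or NKG2C, had 532, 746 and 770 CPM, ratios of 1.40 (1.02 to 1.91) and 1.45 (1.17 to 1.80). Exhaustion receptors were low. Pdcd1, Lag3, Havcr2 or Tigit had a UMI in 9, 4 and 6 NK cells, and Pdcd1 stood at 9.67, 0 and 4.16 CPM in NK cells against 244, 200 and 235 CPM in T cells.

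Eomes, the factor of conventional NK cells, had 174, 226 and 154 CPM and a UMI in 39.5%, 37.0% and 47.1% of NK cells, or 22.7%, 20% and 22.9% at 1500 UMIs. Tumour cells, far deeper, had an Eomes UMI in 5.15%, 5.43% and 5.12%, or at most 0.456% at 1500 UMIs, and macrophages in at most 0.490%. Tbx21 had 83.8, 120 and 66.6 CPM. Of 16 ILC1 and residency genes 15 had a UMI in some NK cell and 3 were compared, with medians of -1.18 (2 lower) and 0.02, or -0.12 for Rhot1 without the deepest wild-type cell. For neither of the 2 lower genes did the interval of the ratio leave out 1. The summed list was level in the Mfn2 library, at a ratio of 0.960 (0.648 to 1.39). A UMI of Cxcr6, Itga1 or Tnfsf10 was found in 4.94%, 11.1% and 11.8% of NK cells, and Cd69, an activation and residency marker, in 24, 8 and 16 cells. Cxcr6, a receptor of tissue-resident lymphocytes, had 0, 0 and 2 UMIs against 349, 287 and 280 CPM in T cells. Among 14 compared factors 3 were higher and 2 lower in the Mfn2 library (median 0.27) and 0 higher and 3 lower in the Rhot1 library (median -0.13). Runx3, which drives cytotoxic lymphocyte fate, had 271, 573 and 337 CPM, a Mfn2 ratio of 2.12 (1.43 to 3.09) that was 0.43 on the log2 scale after thinning and 0.28 with no C1q or keratin UMIs. Runx1 went the other way at 129, 26.6 and 99.9 CPM in 28, 2 and 13 cells, a Mfn2 ratio of 0.207 (0.024 to 0.797). In the Rhot1 library Klf2 was at 104 against 203 CPM, ratio 0.513 (0.309 to 0.827), Tcf7 (TCF-1) at 45.8 against 96.7 CPM, ratio 0.474 (0.214 to 0.973), and Nr4a2 at 58.3 against 132 CPM, ratio 0.441 (0.222 to 0.826). The Klf2 value was -0.18 when each cell was weighted alike. Irf8, at 1008, 1172 and 1108 CPM, and Id2, at 654, 799 and 766 CPM, lay under 1.5-fold.

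Maturation markers of the mouse, Cd27 for early and Itgam (CD11b) for late stages, were found in few cells at this depth. Cd27 without Itgam was found in 29.6%, 22.2% and 25.5% of NK cells, Itgam without Cd27 in 12.3%, 11.1% and 9.80%, and neither in 53.1%, 59.3% and 58.8%. The intervals of each share overlapped between libraries. Of 10 compared mature NK genes 4 were higher and 1 lower in the Mfn2 library (median 0.46) and 3 higher and 1 lower in the Rhot1 library (median 0.11). Of 9 compared immature NK genes 2 were higher and 3 lower (median 0.24), and 0 higher and 2 lower (median -0.12). Without the deepest wild-type cell the immature genes had 1 higher and 3 lower for Mfn2 (median 0.09), and the mature genes 3 higher and 2 lower for Rhot1 (median -0.01). Cycling cells were 11 of 81, 4 of 27 and 10 of 51, and of 15 compared S and G2/M genes 3 were higher and 2 lower in the Mfn2 and 2 higher and 3 lower in the Rhot1 library, with medians of -0.06 and -0.24. Without the deepest wild-type cell, which held 7 Mki67 UMIs, 5 of 14 were higher and 2 lower, and 1 higher and 2 lower, with medians of 0.13 and 0.12.

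Of the other NK lists, the 20 compared core genes outside the rule had medians of 0.30 (4 higher, 2 lower) and 0.08 (2 higher, 0 lower). Without the deepest wild-type cell these were 0.16 (3 higher, 3 lower) and -0.07 (2 higher, 0 lower). The 14 cytotoxic granule genes had medians of 0.23 (2 higher, 1 lower) and 0.20 (4 higher, 0 lower; 2 higher without the deepest wild-type cell). Beside the granzymes, the cystatin Cst7 had 264, 333 and 416 CPM and the lysosomal protease Ctsd 464, 413 and 754 CPM, Rhot1 ratios of 1.58 (1.17 to 2.14) and 1.63 (1.30 to 2.04), but log2 ratios of 0.50 and 0.58, both under the line, without the deepest wild-type cell. The 6 secreted factors had medians of -0.43 (1 higher, 3 lower) and -0.44 (1 higher, 2 lower), and without that cell 4 of 7 were lower in each library. The 10 trafficking genes had medians of 0.49 (4 higher, 0 lower) and -0.00 (0 higher, 1 lower), and the beta 2 integrin chains Itgal at 155, 280 and 212 CPM and Itgb2 at 132, 266 and 196 CPM were among the 4. The 11 cytokine receptor genes had medians of 0.16 (2 higher, 0 lower) and -0.01 (0 higher, 1 lower), the first turning to -0.08 over 12 members without the deepest wild-type cell, with the interleukin 15 receptor chain Il2rb at 796, 985 and 787 CPM. The 10 receptor kinases and adaptors had medians of 0.22 (2 higher, 2 lower) and 0.14 (2 higher, 0 lower). Among them Inpp5d (SHIP-1), a lipid phosphatase behind inhibitory receptors, had 29 UMIs in 24 wild-type cells, 18 in 15 Rhot1 cells and 0 in the Mfn2 library, where 3 UMIs, the floor set for a count of 0, stand for 39.9 CPM. For the 3 TGF-beta response genes the medians were 0.24 and -0.05.

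Interferon-stimulated genes had the highest Mfn2 median of the lists with 10 or more compared members. Of 16 compared members of 40, 10 were higher and 0 lower, with a median of 0.74, and without the deepest wild-type cell 8 were higher with a median of 0.61. The interval of the ratio left out 1 for 4 of the 10, and the median was under the 1.5-fold line in 7 of 15 other settings. Of the 40 members 6 had no UMI in the Mfn2 library. Among them Ifi27l2a, with 9 UMIs in wild type, fell under the filter and so out of the count of lower genes. In the Rhot1 library 4 were higher and 2 lower, with a median of 0.14, and without that cell 2 were higher and 3 lower. Isg15, a ubiquitin-like protein, had 45.1, 133 and 95.8 CPM, a Mfn2 ratio of 2.95 (1.17 to 7.15). Irf7, the factor that amplifies type I interferon, had 16.1, 93.2 and 54.1 CPM in 5, 4 and 11 cells, and Trim30a 80.6, 266 and 91.6 CPM, a Mfn2 ratio of 3.31 (1.74 to 6.20). With only 7 Mfn2 cells free of T cell receptor UMIs the median turned to -2.60, a value that rests on those cells. MHC class I genes were level, with medians of -0.06 and 0.10 over 16 members and at most 1 past the fold in either direction, although without the deepest wild-type cell 3 were lower in each library and the Rhot1 median was -0.02.

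Immediate early and heat shock genes, which tissue digestion is known to raise, lay below wild type at the median in both knockout libraries. Of 16 compared dissociation stress genes 0 were higher and 5 lower in the Mfn2 library (median -0.28), and 0 higher and 7 lower in the Rhot1 library (median -0.47). Without the deepest wild-type cell 3 and 5 were lower. Jun had 625, 333 and 371 CPM, ratios of 0.533 (0.336 to 0.810) and 0.593 (0.456 to 0.766), the Rhot1 log2 ratio being -0.57 and under the line without that cell, and Fos had 174, 226 and 75 CPM. The 8 NF-kB genes had medians of -0.50 (0 higher, 3 lower) and -0.09 (0 higher, 2 lower), and without that cell 4 and 1 were lower. The inhibitor Nfkbia had 390, 213 and 237 CPM, a Rhot1 log2 ratio of -0.69, or -0.56 without it. Ccl3, Ccl4 and Nr4a2 are immediate early genes in lymphocytes as well, and the part of the digestion in their values was not tested. Of the metabolic lists, the 14 glycolysis members had a median of 0.27 for Mfn2 and 0.08 for Rhot1, the 7 hypoxia genes -0.47 and 0.10, 8 mitochondrially encoded genes 0.22 and 0.16, and 44 nuclear respiratory chain subunits -0.12 (1 higher, 7 lower) and 0.02 (0 higher, 1 lower). Without the deepest wild-type cell the Rhot1 respiratory median was -0.00, and 1 mitochondrially encoded gene was higher for Mfn2 in place of 2. Ndufc1 had 271, 79.9 and 229 CPM, a Mfn2 ratio of 0.295 (0.105 to 0.670), and Cox6a1 383, 186 and 308 CPM.

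**Figure D5:**
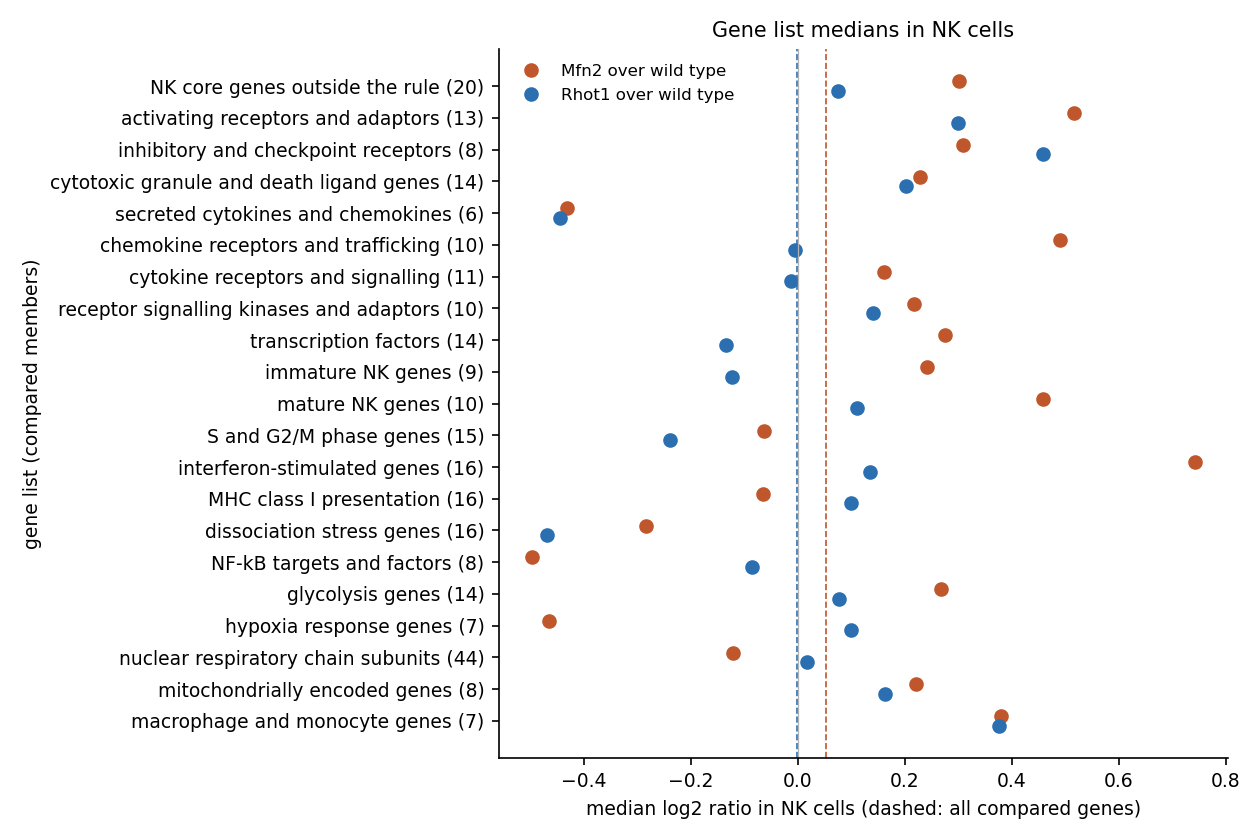
Median log2 ratio to wild type (x axis) of each gene list (y axis, with the number of compared members) in NK cells for the Mfn2 and Rhot1 libraries, beside the medians of all 2986 compared genes as dashed lines. Interferon-stimulated genes lie at 0.74 for Mfn2, and dissociation stress genes at -0.28 and -0.47.

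RNA of other cells also differed between the NK cells of the libraries. Of 11 neutrophil genes the 3 compared were higher in both, and S100a9 had 96.7, 639 and 637 CPM in 17, 5 and 15 NK cells and Retnlg 1, 20 and 17 UMIs. When Scrublet-marked cells were removed the Rhot1 median of this list turned from 2.60 to -0.40. Of 18 macrophage and monocyte genes the 7 compared had medians of 0.38 and 0.38, with Lyz2 at 248, 652 and 325 CPM. Of 10 tumour genes the 3 compared had medians of -0.01 and -1.21, and 0.42 and -0.98 without the deepest wild-type cell. The 7 erythroid and platelet genes had 1 compared member, Pf4, at 71.0, 253 and 87.5 CPM, and the 3 T cell genes medians of 0.24 and 0.40. The part of this RNA in the values of other genes was not tested.

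The genes with the highest and lowest ratios, chosen by a rule on UMIs and on how far 1 cell carries a gene, were mostly not NK effector genes. The rule also asked for a mean level in NK cells at least that over all kept cells, and left out some gene classes. In the Mfn2 library the 10 highest of 1427 eligible genes were P2ry14, Ier5l, Mxd1, Iqsec1, Cdkn1a, Xist, Timm17b, Trim30a, Ssh2 and Ppat, with log2 ratios from 1.56 to 2.00. P2ry14, a receptor for UDP-glucose, had 29.0, 146 and 16.7 CPM, Mxd1, a MYC antagonist, 77.3, 293 and 83.3 CPM, and Cdkn1a (p21) 19, 16 and 12 UMIs. The 10 lowest were Inpp5d, Hspa1b, Zdhhc20, Pdrg1, Runx1, Kdm5a, Uri1, Icam1, Ppp4r3a and Tent5a, each with 2 UMIs or fewer in the Mfn2 library, so that their fold is loose.

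In the Rhot1 library the 10 highest of 1548 eligible genes were Gadd45g, Xist, Napsa, Serpinb9b, Pkp3, C1qtnf6, Lockd, Arl2bp, Itgb3 and Cd160, with log2 ratios from 1.20 to 1.75. Gadd45g, a stress sensor that supports interferon gamma production in lymphocytes, had 61.2, 53.3 and 229 CPM in 14, 4 and 18 cells, a ratio of 3.74 (2.19 to 6.68). Serpinb9b had 48.3, 93.2 and 154 CPM, and its Rhot1 value was 0.14 after thinning. The 10 lowest were Cnot4, Asxl2, P2ry10, Nek7, Ubald2, Pds5a, Smu1, Rbmx, Rin3 and Nfkbiz, with log2 ratios from -1.56 to -1.14. Cnot4, a ubiquitin ligase of the mRNA deadenylation complex, had 93.4, 39.9 and 25 CPM.

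Xist, which silences an X chromosome in female cells, was among the highest genes of both comparisons. Its level was 135, 439 and 433 CPM, and it had a UMI in 16 of 81, 13 of 27 and 17 of 51 NK cells. The Y-linked genes Ddx3y, Eif2s3y, Uty and Kdm5d had a UMI in 25, 3 and 15 NK cells, and only 1, 0 and 1 cells had both kinds. Macrophages had Xist shares of 22%, 37.8% and 35.3%. No file maps cells to mice, and the part of the pooled mice in these differences was not tested. Tumour cells carried Y-linked UMIs in 62.4%, 67.8% and 68.1%, and how much of the Y-linked signal in NK cells is free tumour RNA was not tested. Within the 15, 13 and 16 NK cells with Xist only, Gzmb had 1036, 2356 and 2175 CPM and Xcl1 1726, 168 and 1201 CPM. In the same cells Gzmc had 3607, 28 and 8308 CPM and Gzma 5972, 6451 and 4018 CPM. In the 24, 3 and 14 cells with Y-linked genes only, Gzmb had 1939, 1014 and 2618 CPM, lower in the Mfn2 library than in wild type, Gzmc 4546, 2433 and 10137 CPM, Gzma 2158, 8111 and 1302 CPM and Xcl1 979, 203 and 350 CPM. The order of the libraries for Gzmb thus differed between the 2 kinds of cells, each of them few, while the order for Gzma was the same in both. In both, Gzma was lower in the Rhot1 library than in wild type. Over all NK cells it was slightly higher there, at 3652 against 3319 CPM.

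Beside T cells of the same libraries, NK cells differed in their granzymes and receptors. Of 2986 genes 9.01% were higher and 4.99% lower by 1.5-fold or more in NK cells in the mean of the 3 libraries. These genes were filtered on their mean in NK cells only, so genes high in T cells and nearly absent in NK cells are not counted. The 10 lowest genes given below are all of that kind, and the 2 shares cannot be set against each other. Gzma had 3319, 6085 and 3652 CPM in NK cells and 116, 185 and 209 CPM in T cells, a mean log2 ratio of 4.60 (4.06 to 4.97 over the libraries). Gzmc, with 52.4, 113 and 11.2 CPM in T cells, had a mean of 5.79 (3.45 to 8.32), Gzmd 5.64 and Gzme 4.60. Carbonic anhydrase 2 (Car2) had a mean of 4.13, Klra4 4.16 and Klra8 4.05. Klre1, Ncr1 and Klrb1c complete the 10 highest and are so by the rule. Gzmb was closer, at 602, 1139 and 601 CPM in T cells, and Gzmf had more UMIs in T cells, 64, 68 and 17. The 10 lowest were the CD3 genes, which the rule sets to 0, Trac (-5.46), Cd8b1, Cd8a, the costimulatory receptor Tnfrsf4 (-5.32), Ifi27l2a (-5.32), Cxcr6 (-4.63) and Cd6 (-4.06).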

How the data were processed

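The deposited values were UMI counts per gene and cell in 3 libraries of 3′ ends, which per the file headers came from Cell Ranger 7.0.0, with build mm10 per the submitters' processing notes; whether intronic reads were counted is not given in the sources used here. The members and gene lists were chosen with earlier results of these data known. Kept cells held 111966634, 117931901 and 117937308 UMIs, and 901 symbols shared by several identifiers were summed. Counts of NK cells were summed per library and given as CPM, with a pseudocount of 10 CPM, a mean of at least 50 CPM and a fold of 1.5; thinning was to 1500 UMIs. Intervals were Poisson, Clopper-Pearson and conditional binomial, and for ratios of shares a normal approximation on the log scale, at 95%. Named genes of the knockout comparisons were the 10 highest and 10 lowest ratios among genes with 20 or more UMIs in the pair and at most 20% of them in 1 cell. Their mean CPM in NK cells also had to reach that over all kept cells. Mitochondrially encoded, ribosomal protein, haemoglobin and immunoglobulin genes and unnamed gene models were left out. The limit on 1 cell was not used for the 10 highest genes beside T cells. Doublets were not removed. Scrublet marked 255, 304 and 223 kept cells and 1 NK cell per library, and removing them was an alternative. The calculations were tested on simulated data. Python 3.11.15 was used with numpy 2.4.6, scipy 1.17.1, pandas 2.3.3 and scanpy 1.11.5. Leaving out cells over 15000 UMIs was chosen after seeing the data.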

Additional observations from a re-analysis of the deposited data

How the results depend on the processing

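No paired analysis was possible because each genotype had 1 library. A floor of 500 genes and a mitochondrial ceiling of 10% kept the same 159 NK cells. Of 70 gene ratios 57 passed 1.5-fold, 28 of them in every setting, and 17 changed sign in at least 1. The 70 include the 10 highest and 10 lowest genes of each comparison, which were chosen for their ratios. Their count is thus no measure of how many genes differ. Over all compared genes 31.7% for Mfn2 and 16.1% for Rhot1 passed 1.5-fold in either direction. Of 54 list medians 5 passed, 2 in every setting. The settings with the fewest cells moved most. Without T cell receptor or Cd8b1 UMIs (18, 7 and 2 NK cells) the log2 ratio of the Rhot1 share was -3.18 instead of -0.68 (-0.31, under 1.5-fold, with a marker sum of at least 3), and the genes past the fold were 1154 higher and 820 lower for Mfn2 and 1238 higher and 1584 lower for Rhot1. In that setting the Mfn2 value turned to -2.60 for P2ry14, Ssh2, Ppat and the interferon-stimulated median, -3.48 for Trim30a, 1.73 for Pdrg1 and -0.57 for Gzmb, and the Rhot1 value to -3.11 for C1qtnf6 and Cd160, -1.82 for Itgb3 and Klrg1, 0.21 for Ubald2, -4.02 for Gzmc, -2.60 for Klra1 and 2.17 for Klf2. With no C1q or keratin UMIs 550 genes were higher and 443 lower for Rhot1, and the Mfn2 value turned to -0.27 for Gzmb, -0.89 for Klra1 and 0.84 for Klrg1. After thinning 825 were higher for Mfn2, and 522 higher and 530 lower for Rhot1, and the value turned to -0.36 for Ccl5 and -0.55 for Klra1 in Mfn2 and to -0.31 for Itgb3 in Rhot1. A pseudocount of 50 CPM gave 301 and 242 for Mfn2 and 77 and 115 for Rhot1, a filter at 150 CPM 101 and 55, and 40 and 22, and no filter 2515 and 3414, and 1464 and 2086, with the ILC1 median at 0.28 for Mfn2. Weighting cells alike gave 345 higher for Rhot1. Without each gene's top cell 259 were higher and 451 lower for Mfn2, and 178 higher and 166 lower for Rhot1, and Klra1 was -0.62 in Mfn2. This setting lowers the Mfn2 values by its arithmetic, since 1 cell is a larger part of the fewer Mfn2 cells. Without Scrublet-marked cells the Rhot1 neutrophil median was -0.40. Median-of-ratios scaling shifted Mfn2 by 0.06 and changed its split from 17.6% higher and 14.1% lower to 15.1% and 15.9%. The causes were not tested. With 27 cells and 75103 UMIs, the Mfn2 library limits precision most.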

Other observations

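Klra4, a Ly49 receptor gene, was not limited to NK cells. A Klra4 UMI was found in 51.4%, 63.2% and 55.0% of tumour cells of the wild-type, Mfn2 and Rhot1 libraries, against 35.8%, 22.2% and 35.3% of NK cells and 2.83%, 3.56% and 2.33% of macrophages. At 1500 UMIs per cell the shares were 6.70%, 9.81% and 8.09% of tumour cells and 30.7%, 25% and 31.2% of NK cells.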
